A study of Mus musculus with 48 samples.

Results

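Endothelial cells line blood and lymph vessels. In the joints of these mice they were the cells that the deposited annotation calls endothelial in a joint sample, 258 of 2230 annotated joint cells and of 12096 annotated cells in the series. Transcripts of single cells were counted with Seq-Well, a method in which cells settle into microwells with barcoded beads and each captured RNA molecule is counted once by its unique molecular identifier (UMI). The mice were male DBA1/J animals aged 8 to 12 weeks, an inbred strain that develops arthritis after immunisation against collagen. Mice with collagen-induced arthritis (CIA, named S) had received 100 µg bovine collagen II in complete Freund's adjuvant into the skin near the tail base, and a booster in incomplete adjuvant on day 20. The healthy mice (named H) had received saline in its place. Joint tissue came from 3 healthy mice (H3, H4 and H7) and 5 mice with CIA (S1, S3, S5, S6 and S8), and all of it had been frozen, thawed, minced and digested before capture. The mouse is the replicate throughout, because cells of 1 mouse share an animal and a library.

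The 8 mice belonged to 2 experiments. H3, S1 and S3 were from the experiment that the labels call 2CIA, where both CIA mice had an arthritis score of 8. H4, H7, S5, S6 and S8 were from the experiment called CIA, where S5 scored 4 to 5, S6 scored 3 to 4 and S8 scored 2 to 3. Severity and experiment therefore cannot be told apart. Of the 258 cells, 44 came from healthy mice and 214 from mice with CIA. H3 gave 30 cells, H4 13 and H7 1, while S1 gave 108, S5 76, S6 20, S3 7 and S8 3. Only H3, H4, S1, S5 and S6 had at least 10 cells, so comparisons of gene levels used these 5 mice, 2 healthy and 3 with CIA. Their summed endothelial UMIs were 29379 in H3, 7834 in H4, 97819 in S1, 106429 in S5 and 21583 in S6. H4 thus had the fewest molecules of the 5, and a single UMI was worth most in it. A cell had a median of 764.5 UMIs and 419 genes, and none had over 6000 UMIs. No endothelial barcode was found in another sample.

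Endothelial cells form the inner wall of arteries, capillaries, veins and lymphatics, and each vessel type has its own characteristic genes. In inflamed tissue, venules in particular display selectins and other adhesion molecules that let leukocytes slow, roll and leave the blood, and endothelial cells release chemokines. They also build, together with the pericytes wrapped around them, the basement membrane, a sheet of type IV collagen, laminins and associated proteins under the vessel lining. In arthritis the synovial membrane is known for new vessel growth and for the leukocytes that enter through its venules.

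The annotated cells were a mixture by their own transcripts. The 3 marker genes were much more frequent in them than in other joint cells, yet 100 of the 258 cells held no UMI of Cdh5 (VE-cadherin, the junction protein of endothelium), Pecam1 (CD31, an adhesion protein of endothelial junctions) or Fabp4 (a fatty acid carrier of capillary endothelium). Fabp4 was found in 144 of 258 cells (55.8%), against 234 of 1972 other annotated joint cells (11.9%). Pecam1 was found in 67 cells (26.0%), against 2.13% of the others. Cdh5 was found in 52 cells (20.2%), against 0.609%. The median depth was 764.5 UMIs in the endothelial cells and 858.5 in the others, so depth did not favour the endothelial cells. On a wider list of 24 endothelial identity genes, 139 cells (53.9%, 95% Wilson interval 47.8 to 59.9, which covers counting error only) held at least 3 UMIs, 46 held 1 or 2, and 73 held none. Among the other joint cells, 58 of 1972 (2.94%) reached 3 UMIs, and 35 of those 58 were annotated as fibroblasts. The 139 cells held 59.0% of all UMIs of the annotated endothelial cells. Their share of the identity-gene UMIs, 97.4%, follows largely from the rule that chose them.

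The share of annotated cells with at least 3 identity UMIs differed between mice more than between states. It was 16 of 30 in H3, 9 of 13 in H4, 60 of 108 in S1, 32 of 76 in S5 and 19 of 20 in S6, and pooled it was 25 of 44 in healthy mice and 114 of 214 in CIA. S6 was almost free of unsupported cells and S5 had the lowest share of the 5. The 1 cell of H7 and the 3 cells of S8 all fell short of 3 UMIs. Globin transcripts made up over 10% of the UMIs in 50 cells, of which 25 were from S5, 22 from S1, 2 from H3 and 1 from S3, and 36 of these 50 had fewer than 3 identity UMIs. At least 5 UMIs of mural markers, the genes of pericytes and smooth muscle, were found in 43 cells, 28 of which also had 3 identity UMIs. Gene levels are given for all annotated cells, and for some of the genes below also for the 139 cells alone, a choice made after the data were seen.

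**Figure D1:**
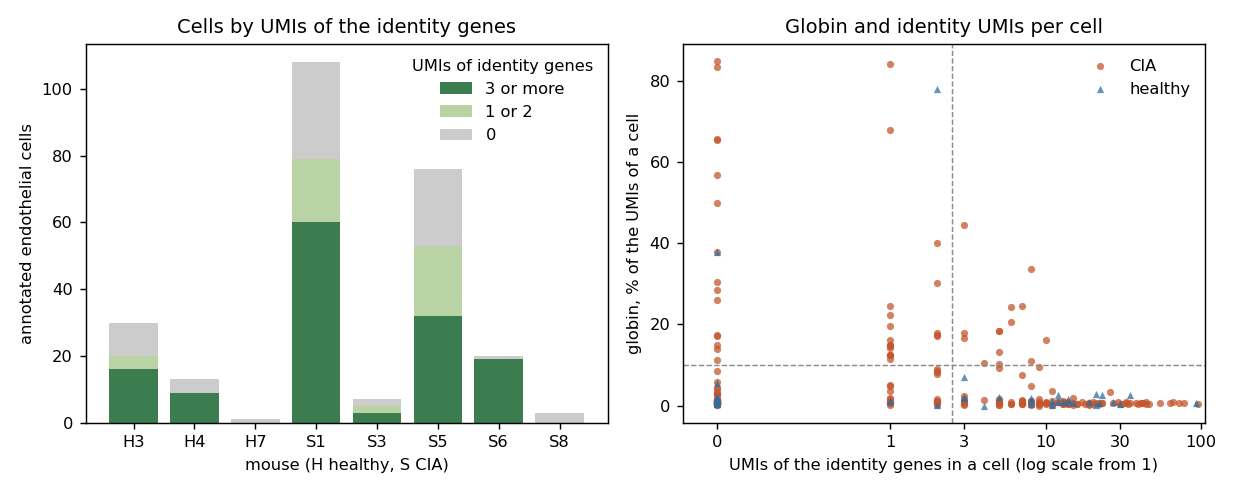
The left panel stacks the annotated endothelial cells of each mouse by their UMIs of the 24 identity genes, and the right panel plots each cell's globin UMIs, in percent of its UMIs, against its identity UMIs, with dashed lines at 10% globin and 3 identity UMIs. Of the 258 cells, 139 had at least 3 identity UMIs, and the 50 cells over 10% globin lay mostly to the left of that line.

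The genes that set the annotated cells apart from the rest of the joint were endothelial genes, as the annotation itself would have it, and are given as a description. The highest ratios of summed CPM (UMI counts scaled to an equal library total) to other joint cells, among genes with at least 50 UMIs, were those of Sele (E-selectin) at 74.8, Ptprb (a phosphatase at endothelial junctions) at 56.6, Cdh5 at 46.6 and Selp (P-selectin) at 45.7. Adgrf5, Fabp4, Egfl7, Apold1, Mmrn2 and Flt1 followed, between 37.2 and 25.1. Both selectins, which endothelium makes to catch leukocytes, thus stood among the 4 most specific genes.

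Arterial, capillary and venous genes were each found in a larger share of the annotated cells than of the other joint cells, and lymphatic genes in a smaller one. After each cell was thinned to 400 UMIs, 20.2% of the annotated cells held a UMI of the 12 arterial genes, against 4.16% of other joint cells. Capillary genes were held by 37.2% against 16.3%, and venous genes by 30.2% against 13.6%. Without thinning the shares in endothelial cells were 34.9%, 55.4% and 46.9%. Joint fibroblasts, which are not vessel cells, held an arterial UMI in 5.47% of cells, a capillary UMI in 27.2% and a venous UMI in 12.6% after thinning, and in 15.8%, 48.1% and 26.5% before, so the capillary list set endothelial cells apart the least from them. The 8 lymphatic genes went the other way, at 2.71% of endothelial cells and 5.58% of other joint cells after thinning, and at 6.59% and 10.7% before. Prox1, the factor that sets lymphatic fate, had 1 UMI and Lyve1 had 2 UMIs in all 258 cells, while fibroblasts held a lymphatic-list UMI in 12.9% of cells after thinning. Among the 139 cells with identity support, 67 held an arterial UMI, 101 a capillary UMI and 75 a venous UMI, and 42 held both arterial and venous UMIs. At this depth most single cells could not be given 1 vessel type, and no cell was assigned to one.

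Endothelial cells were not a detectably larger or smaller part of the joint in CIA. They made up 17.3% of annotated joint cells in H3, 8.18% in H4 and 1.39% in H7. In CIA they made up 17.9% in S1, 5.56% in S3, 7.96% in S5, 35.1% in S6 and 3.61% in S8. The means were 8.97% ± 8.01 (SD, n = 3) and 14.0% ± 13.0 (SD, n = 5), the ranges overlapped almost wholly, and the difference of 5.04 percentage points had p = 0.589 in a 2-sided exact permutation test over the 56 splits of the mice, whose smallest possible p is 0.0179. S6, which had 57 annotated joint cells in all, set the sign, since the difference was -0.224 without it. Against endothelial cells and fibroblasts alone the difference was 23.3 points (exact permutation p = 0.143).

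Few genes passed the test between CIA and healthy joints, and 3 basement membrane genes and 3 interstitial collagen genes were among them. Of 3805 genes with at least 10 UMIs over the 5 mice, 10 passed the threshold of 0.05 on the Benjamini-Hochberg adjusted p of edgeR's quasi-likelihood test (0.263% of those tested), 9 higher in CIA (0.237%) and 1 lower (0.0263%). The higher genes were Col4a1, Col4a2 and Sparc from the basement membrane list, the interstitial collagen genes Col1a1, Col1a2 and Col3a1, the fibronectin gene Fn1, the pericyte gene Rgs5 and the capillary gene Rgcc. DESeq2 called 0 genes in the same table, with 59 at an unadjusted p under 0.05, against 262 in edgeR. Levels below are CPM scaled by trimmed mean of M values (TMM) factors, and on that scale the median log2 difference of all tested genes was 0.42, while it was 0.0753 with plain library sizes. With plain library sizes 1 gene was called, so the split of calls changed from 9 higher and 1 lower to 0 higher and 1 lower.

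Among the 10 called genes, those of type IV collagen, the network-forming collagen of basement membranes, had the largest shares of their UMIs in cells with identity support. Col4a1 had 110 CPM in H3 and 0 in H4, against 1254 in S1, 583 in S5 and 458 in S6. All 3 CIA mice lay above both healthy mice. Its log2 fold change was 3.37 ± 0.831 (SE; edgeR adjusted p = 0.0401), and because it rests on 3 healthy UMIs against 161 in CIA, the ratio of summed CPM was 8.84 with a 95% counting interval of 2.97 to 43.3. Col4a2, whose product pairs with that of Col4a1, had no UMI in either healthy mouse and 377 CPM in S1, 260 in S5 and 458 in S6. With 3 UMIs over the healthy group taken as the upper limit of a count of 0, its level was at least 3.46-fold higher in CIA (63 UMIs; edgeR adjusted p = 0.0417). The genes lie head to head on chromosome 8 of GRCm38, Col4a1 at chr8:11198423-11312889 and Col4a2 at chr8:11312805-11449287 in the RefSeq annotation, so that their starts overlap while the ends from which reads come lie apart. The 139 cells held 80.7% of Col4a1 UMIs and 88.9% of Col4a2 UMIs, and the summed levels were 6.88 and 5.92 times those of other joint cells.

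Sparc, a collagen-binding matrix protein made by many stromal and endothelial cells, had 773 CPM in H3 and 669 in H4, against 5660 in S1, 4749 in S5 and 2497 in S6. The groups did not overlap, and the log2 fold change was 2.57 ± 0.643 (SE; edgeR adjusted p = 0.0417). Col18a1, the source of endostatin in vascular basement membrane, had 0 and 83.6 CPM in the healthy mice and 402, 211 and 250 CPM in S1, S5 and S6. It did not pass the test (edgeR adjusted p = 0.393), and neither did Col15a1, with 36.8 and 0 CPM against 268, 161 and 166 (edgeR adjusted p = 0.597). Of the 14 basement membrane genes tested, 3 were called higher and 0 lower, and in 7 every CIA mouse was above both healthy mice, which held for 21.3% of all tested genes (26.5% in either direction). The list's median log2 fold change was 1.52, also with the gene at 0 set to its bound, against 0.42 over all genes (0.15 with genes at 0 in a group set to their bounds). The list was drawn up with earlier results of these data known. It is not specific to vessels, since it summed to 1.57% of UMIs in joint fibroblasts and 0.797% in the annotated endothelial cells. The paper counts Sparc among its fibroblast markers, although Sparc is not on the fibroblast list used below. The part of fibroblast RNA or cells in the calls of this list was not tested. Sparcl1, Nid1 and Lama4 did not follow, at -0.50, -0.11 and 0.11 on the log2 scale, all with an edgeR adjusted p above the threshold.

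**Figure D2:**
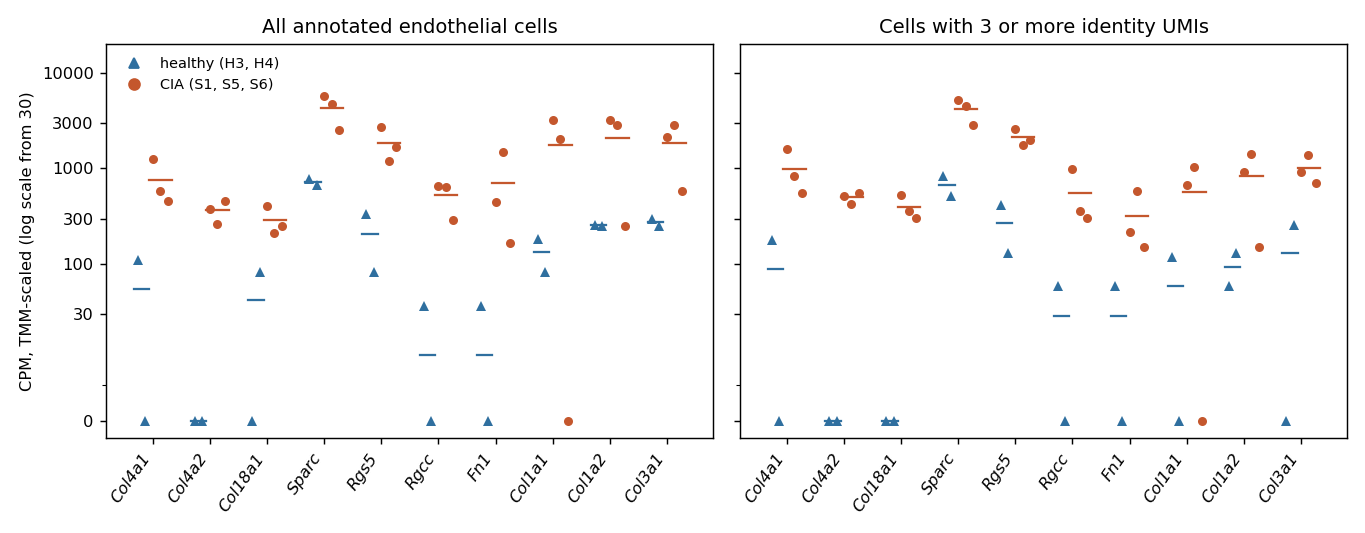
Levels in TMM-scaled CPM (log scale from 30) of 10 matrix, pericyte and capillary genes in each mouse, with triangles for H3 and H4, circles for S1, S5 and S6 and bars at the group means, in all annotated endothelial cells (left) and in those with at least 3 identity UMIs (right). Col4a1, Col4a2, Sparc and Rgs5 are separated between the groups in both panels, while Col1a1 is at 0 in S6 in both.

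The interstitial collagens differed between the CIA mice themselves. Col1a1, the main chain of type I collagen in bone, skin and synovium, had 184 CPM in H3, 83.6 in H4, 3201 in S1 and 2046 in S5, and 0 in S6. S6 therefore lay below both healthy mice, and the call (log2 fold change 3.58 ± 0.802, SE; edgeR adjusted p = 0.0217) rests on S1 and S5. Col1a2 had 258 and 251 CPM in the healthy mice, 3177 in S1 and 2815 in S5, but 250 in S6 (3.04 ± 0.709; edgeR adjusted p = 0.0261). Col3a1, the type III collagen of soft connective tissue, had 294 and 251 CPM against 2130, 2877 and 583, with no overlap (2.76 ± 0.674; edgeR adjusted p = 0.0401). Fn1, which cells deposit as a scaffold for adhesion, had 36.8 and 0 CPM against 450, 1476 and 166. With 1 healthy UMI against 160 in CIA, its ratio was 26.4 with a counting interval of 4.66 to 1048 (edgeR adjusted p = 0.0217).

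These 4 genes lay mostly outside the cells with identity support. Only 18.3% of Col1a1 UMIs, 22.5% of Col1a2, 28.6% of Col3a1 and 25.4% of Fn1 were in the 139 cells, which held 59.0% of all UMIs, and Col1a1 reached 9670 CPM in joint fibroblasts against 1647 CPM in the annotated endothelial cells. The 10 fibroblast markers, 3 of which are the called collagens themselves, summed to 0.432% of UMIs in H3, 0.217% in H4, 0.920% in S1, 0.905% in S5 and 0.213% in S6. They were thus high in the 2 CIA mice with high Col1a1 and low in S6. All 10 fibroblast markers had UMIs in the endothelial cells and 9 were tested. The part of fibroblast RNA or cells in these 4 results was not tested.

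Rgs5, a regulator of G protein signalling best known from pericytes, had 331 CPM in H3 and 83.6 in H4, against 2690 in S1, 1190 in S5 and 1665 in S6. Its log2 fold change was 2.96 ± 0.676 (SE; edgeR adjusted p = 0.0234), all CIA mice were above both healthy mice, and 72.0% of its UMIs lay in cells with identity support. The other mural markers lay lower in CIA. Acta2, the actin of smooth muscle, had 478 and 2342 CPM in the healthy mice and 341, 310 and 458 CPM in S1, S5 and S6 (edgeR adjusted p = 0.222), and Myh11, the smooth muscle myosin, had 405 and 836 against 195, 62.0 and 208. Of 5 mural markers tested, 1 was called higher. On the TMM scale the other 4 were lower in every CIA mouse than in either healthy mouse without a call, as were 5.2% of all tested genes. With plain library sizes Acta2 was higher in S6 than in H3. The summed mural list was 0.208% and 0.664% of UMIs in H3 and H4, and 0.314%, 0.153% and 0.352% in S1, S5 and S6, so its levels overlapped. In the 139 cells Acta2 and Myh11 had the opposite sign, at 1.46 and 0.71 on the log2 scale, without a call.

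Rgcc, a cell cycle regulator found in capillary endothelium, had 36.8 and 0 CPM in the healthy mice and 657, 645 and 291 CPM in S1, S5 and S6. The ratio was 18.6 on 1 UMI against 113, with a counting interval of 3.27 to 742 (edgeR adjusted p = 0.0401), and 64.3% of its UMIs were in supported cells. It was the only one of 6 tested capillary genes to pass.

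Among the supported cells alone, 6 of the 10 genes passed. In the 139 cells, of which 136 came from the 5 mice, 2647 genes were tested and 14 called, all higher in CIA. Col4a1, Col4a2, Sparc, Rgs5, Col1a2 and Col3a1 were shared with the 10, while Col1a1, Fn1 and Rgcc did not pass there (edgeR adjusted p = 0.226, 0.547 and 0.123). Col4a1 had 177 and 0 CPM in the healthy mice, against 1601, 833 and 552 in S1, S5 and S6 (edgeR adjusted p = 0.0378). Sparc had 828 and 518 CPM against 5138, 4458 and 2861 (edgeR adjusted p = 0.00787), and Rgs5 had 414 and 130 CPM against 2609, 1779 and 2008 (edgeR adjusted p = 0.00953). These are the same mice and libraries, so they do not count as a second experiment. The other 8 calls were the neutrophil genes Camp, Ngp, S100a8, S100a9, Ltf and Retnlg, and Wfdc21 and Ifitm6. In the supported cells the 10 granulocyte markers were 0.452% of UMIs in H3, 0.082% in H4, 2.39% in S1, 10.9% in S5 and 0.314% in S6. The level in S6 lay between those of the healthy mice, so the rise was one of S1 and S5.

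Within the experiment CIA, where H4 was the only healthy mouse with enough cells, Col1a1, Col1a2, Col3a1, Sparc and Rgs5 had log2 changes of 3.28, 2.28, 2.46, 2.13 and 3.78, each of the sign seen in all 5 mice, and edgeR called 0 of 2044 genes, with 108 at an unadjusted p under 0.05. Col4a1, Col4a2, Fn1 and Rgcc had 0 UMIs in H4. The experiment 2CIA held 1 mouse of each state and gives no test. With experiment as a covariate 4 genes were called, among them Col1a1, Col1a2 and Rgs5. The calls needed nearly every mouse, since 0 genes passed without H3, H4, S1 or S6, and 8 passed without S5, of which 7 were among the 10. All 10 had the same sign in each of these fits.

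Leukocyte adhesion genes were found in healthy and CIA joints, and no difference between the states passed the test. Sele, the cytokine-induced selectin, had 258 CPM in H3 and 0 in H4, against 207 in S1, 384 in S5 and 791 in S6. H3 lay inside the CIA range, and the log2 fold change of 1.37 ± 0.762 (SE) had an edgeR adjusted p of 0.597. Selp, which is stored in Weibel-Palade bodies and released to the surface, had 736 and 0 CPM against 329, 732 and 874 (0.53 ± 0.628; edgeR adjusted p = 0.921), and without H4 its sign turned to -0.22. Icam1, the ligand for leukocyte integrins, had 515 and 335 CPM against 316, 372 and 291 (-0.41 ± 0.63; edgeR adjusted p = 0.934). Vcam1 was rare, with 13 UMIs over all 8 mice. H4, with 7834 UMIs in all, was at 0 for Sele, Selp and Cdh5, where 1 UMI would be 83.6 CPM, so differences set by H4 were not detectable at that depth. Of 11 adhesion genes tested 0 were called, in a table where 262 genes had an unadjusted p under 0.05, and the list's median of 0.53 was near the 0.42 of all genes. A UMI of any adhesion gene was found, after thinning, in 50.0% of healthy and 42.1% of CIA cells, and before thinning in 59.1% and 62.1%, so no order is read from them; it was found in 19.7% of other joint cells after thinning.

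Cytokine and chemokine transcripts were numerically higher in every CIA mouse for several genes, but none passed the test. Il6, an inflammatory cytokine that endothelium releases, had 368 and 83.6 CPM in H3 and H4, and 913, 818 and 708 in S1, S5 and S6 (log2 fold change 1.65 ± 0.652, SE; edgeR adjusted p = 0.578). Cxcl1, a neutrophil attractant, had 221 and 251 CPM against 828, 1724 and 1041 (2.36 ± 0.67; edgeR adjusted p = 0.174). Ccl2, which attracts monocytes, had 73.6 and 0 CPM against 596, 595 and 125 (edgeR adjusted p = 0.202), a ratio of 8.24 on 2 healthy UMIs with a counting interval of 2.22 to 69.0. None of these 3 genes overlapped between the groups, which held for 26.5% of all tested genes. Their UMIs were 73.1%, 70.8% and 61.3% in supported cells, and Cxcl1 and Ccl2 were 1.42 and 0.68 times as high as in other joint cells, so of the 3 only Il6, at 8.08 times, was much more abundant in endothelial cells. Lrg1, a venular glycoprotein that promotes vessel growth, had 110 and 83.6 CPM against 402, 335 and 499 (1.96 ± 0.827; edgeR adjusted p = 0.597). Cxcl12 had 589 and 0 CPM against 450, 260 and 583, with overlap. Of 9 chemokine genes 0 were called and 4 were higher in every CIA mouse, as were 21.3% of all tested genes. The list's median of 1.63 fell to 0.60 with the gene at 0 set to its bound. Of 20 inflammatory activation genes 0 were called, with a median of 0.52.

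**Figure D3:**
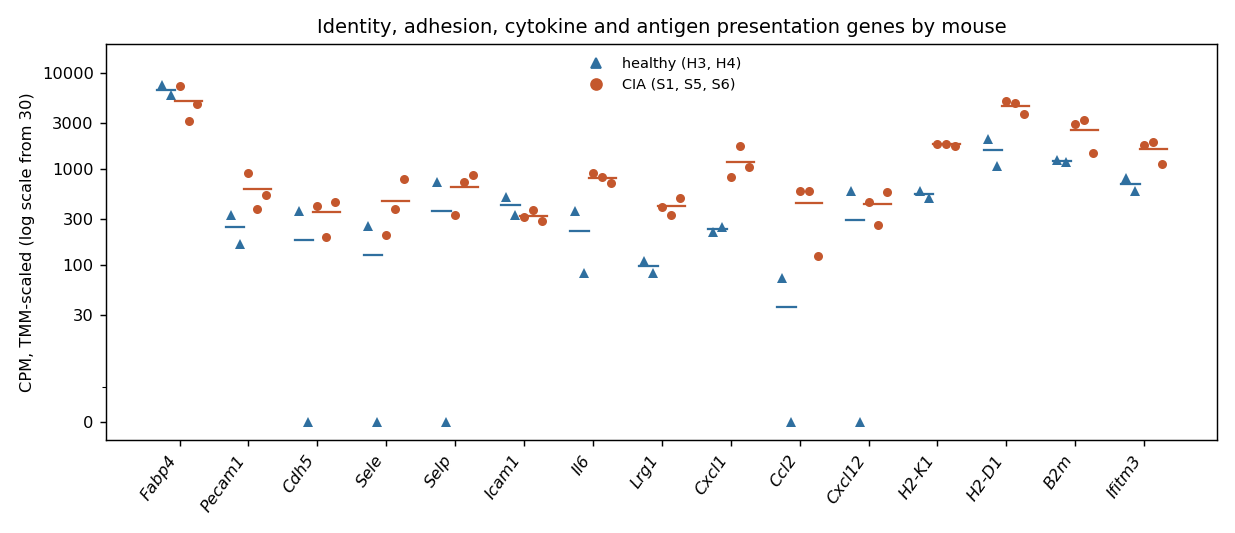
TMM-scaled CPM (log scale from 30) of 15 identity, adhesion, cytokine, chemokine and antigen presentation genes in each mouse, with triangles for H3 and H4, circles for S1, S5 and S6 and bars at the group means. Sele, Selp, Icam1 and Fabp4 overlap between the groups, while Il6, Cxcl1, Lrg1 and H2-K1 do not, and none of the 15 passed the test. No overlap was found for 26.5% of all tested genes.

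The class I antigen presentation genes H2-K1, H2-D1 and B2m make products that display peptides to cytotoxic T cells. On the TMM scale they were higher in each CIA mouse than in each healthy mouse, but none passed the test. With plain library sizes B2m was lower in S6 than in H4, and the log2 fold changes of the 3 genes were 1.36, 1.17 and 0.62. H2-K1 had 589 and 502 CPM in H3 and H4 and 1838, 1835 and 1748 in S1, S5 and S6 (log2 fold change 1.71 ± 0.6, SE; edgeR adjusted p = 0.393). H2-D1 had 2061 and 1087 CPM against 5136, 4873 and 3704 (1.51 ± 0.604; edgeR adjusted p = 0.586), and B2m, their shared light chain, 1251 and 1171 against 2933, 3224 and 1457 (1.07 ± 0.575; edgeR adjusted p = 0.597). The 3 CIA mice were nearly level for H2-K1. H2-K1 and H2-D1 are close paralogs, so the division of reads between them is uncertain. Of the 10 genes of the list that were tested, 0 passed and 6 were higher in every CIA mouse, against 21.3% of all genes, and the median was 1.29, or 0.97 with the gene at 0 set to its bound. The class II genes H2-Aa and H2-Ab1 and the invariant chain Cd74 had 21, 23 and 29 UMIs, with overlapping groups. Of 16 interferon response genes 0 were called and 15 had a log2 fold change above 0, against 64.5% of all tested genes. The median was 0.80, or 0.57 with genes at 0 set to their bounds, against 0.42 and 0.15 over all genes. Ifi27l2a had 1 healthy UMI against 103 in CIA, a ratio of 17.0 with a counting interval of 2.98 to 677, without a call. Ifitm3, an antiviral membrane protein, had 810 and 585 CPM against 1765, 1922 and 1124 (1.18 ± 0.579; edgeR adjusted p = 0.597).

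The genes that make a cell endothelial did not differ detectably between the states. Fabp4 had 7508 CPM in H3 and 5855 in H4, against 7230, 3174 and 4745 in S1, S5 and S6 (log2 fold change -0.41 ± 0.594, SE; edgeR adjusted p = 0.934). Pecam1 had 331 and 167 CPM against 913, 384 and 541 (1.20 ± 0.663; edgeR adjusted p = 0.597), and Cdh5 had 368 and 0 CPM against 414, 198 and 458 (0.59 ± 0.72; edgeR adjusted p = 0.921). Of 22 identity genes tested 0 passed, and their median of 0.39 lay beside the 0.42 of all genes. The arterial list had a median of 0.90 over 6 genes (0.08 with the gene at 0 at its bound), the venous list -0.26 over 8 and the capillary list 2.41 over 6 (0.07 at bounds, since 2 of its genes had no UMI in a group). Apart from Rgcc, 0 genes of these 3 lists were called. Plvap, a protein of fenestral diaphragms, had 552 and 753 CPM against 596, 273 and 375, and Aqp1, a water channel of capillaries, had 920 and 502 CPM against 548, 521 and 1124.

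RNA of other cell types differed between the mice as well. The 10 granulocyte markers were 3.07% of UMIs in H3 and 0.587% in H4, against 6.35% in S1, 12.6% in S5 and 0.686% in S6, so S6 lay within the healthy range. The 5 red cell markers were 7.01% and 2.64% against 8.87%, 11% and 0.454%, and macrophage markers were 0.211% and 0.140% against 0.245%, 0.600% and 0.056%. Of the 10 macrophage markers 8 had UMIs in the annotated cells, 998 in all, and Csf1r and Adgre1 were at 0. Of the 7 T cell markers 4 had UMIs, 10 in all, and Cd3g, Bcl11b and Lef1 were at 0. Of the 9 granulocyte markers tested, 0 were called. With cells over 10% globin left out, 12 genes were called, among them all 10. The part of these other cells in the CIA comparison was not tested.

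**Figure D4:**
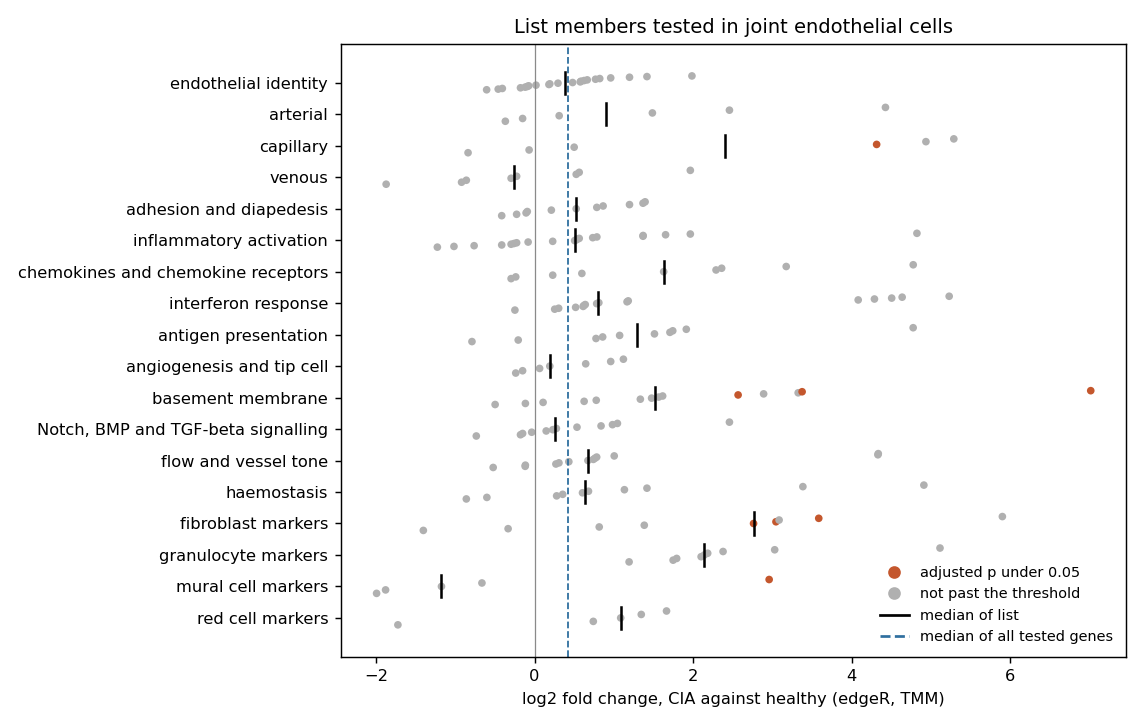
Each point is a tested gene of a list, placed at its log2 fold change between CIA and healthy joint endothelial cells (edgeR, TMM scaling), coloured where its adjusted p was under 0.05, with black bars at list medians and a dashed line at the median of all tested genes (0.42). Points beyond 4 include genes with at most 1 UMI in a group, whose fitted values are no measure of size.

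Selectin RNA was higher in endothelial cells of the joint than in those of limb muscle, but the calls depended on the processing. Muscle was the organ with the next most endothelial cells (240), and H3, H4, H7 and S5 each gave at least 10. In a fit over 9 samples with disease state as a covariate, 27 of 6112 genes passed (0.442%), 4 higher (0.0654%) and 23 lower (0.376%) in joint. Sele had 238, 0, 221, 413 and 725 CPM in the joints of H3, H4, S1, S5 and S6, and 0, 0, 57.3 and 18.3 CPM in the muscle of H3, H4, H7 and S5. All joints but that of H4 were above every muscle sample, and the log2 difference was 3.97 ± 0.887 (SE; edgeR adjusted p = 0.00415). Selp had 680, 0, 351, 786 and 802 CPM in joint and 0, 0, 286 and 147 CPM in muscle, again with H4 as the exception (2.21 ± 0.592; edgeR adjusted p = 0.0443). Both genes lie on chromosome 1 of GRCm38, Sele at chr1:164039614-164058487 and Selp at chr1:164115264-164150026.

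Nearly all selectin UMIs of the joint, 95.9% for Sele and 93.8% for Selp, lay in cells with identity support. In a fit of supported cells alone Sele (3.96 ± 0.885, SE; edgeR adjusted p = 0.00183) and Selp (2.32 ± 0.58; edgeR adjusted p = 0.0116) were called again. Plvap was the 1 other gene called higher in joint (2.20 ± 0.56; edgeR adjusted p = 0.0148). Plvap is itself one of the identity genes whose UMIs chose these cells, so its call there is not independent of that choice. In all annotated cells Plvap had 510, 664, 637, 293 and 344 CPM in joint and 0, 109, 344 and 101 in muscle (edgeR adjusted p = 0.0655). H3, H4 and S5 gave both organs and so pair the samples. With the mouse as a replicate block, which leaves these 3 mice, 0 genes passed, with 87 at an unadjusted p under 0.05, and Sele was 4.45 and Selp 3.09 higher in joint on the log2 scale (edgeR adjusted p = 0.908 for both). Without S5, and without S6, 0 genes passed, and within the experiment CIA 9 passed, Sele (3.93) and Selp (1.49) not among them. DESeq2 called 4 genes, neither selectin among them, and with plain library sizes the split was 8 higher and 13 lower. Of 19 alternative fits, Sele was called in 9 and Selp in 5, and both were higher in joint wherever a value could be had. Neither was called without H3, or with mice of at least 5 or at least 1 cell. Selp was also not called without H4, with experiment as a covariate, or with cells over 10% globin left out.

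Several other genes that passed are known from cells beside the endothelium. Prg4, the lubricin of synovial lining and cartilage surface, and Col2a1, the collagen of cartilage, were higher in joint (edgeR adjusted p = 0.00225 and 0.0291), but 5.03% and 11.8% of their UMIs were in supported cells, and Prg4 had 5236 CPM in S5 against 73.7 to 442 in the other 4 joints. Lower in joint were the mast cell genes Cma1, Cpa3 and Tpsb2, the muscle gene Tnnc2, the globin genes Hbb-bh1, Hbb-bh3, Hbb-y and Hba-ps4, and the class II genes H2-Aa, H2-Ab1 and Cd74. Red cell markers made up 42.0% of the UMIs in the muscle of H4 and 19.3% in that of S5, against 0.454% to 11% in the 5 joints, and their part in these differences was not tested. Of 24 identity genes 0 passed, with a median of 0.12 against -0.10 over all genes. The capillary gene Rbp7 had 66.6 to 664 CPM in joint and 925 to 2665 CPM in muscle, without overlap (as in 1.9% of tested genes, 1.01% higher and 0.884% lower in joint), but did not pass (-1.63 ± 0.483; edgeR adjusted p = 0.095).

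Whether the CIA effect differed between the organs could not be tested beyond 1 library, since S5 gave the only CIA muscle sample. The calls below describe that library, not a CIA effect in muscle, and 0 genes passed without H7, without S1 or with the mouse as a replicate block. The interaction of organ and disease state passed for 4 of 6112 genes (0.0654%), Gal, Gsn, Retnla and Dcn, all 4 with a lower fitted difference in joint (0.0654%) and none with a higher one (0%), where 232 genes had an unadjusted p under 0.05. In the joint, Gsn, an actin-severing protein abundant in fibroblasts, had 1973 CPM in H3, 221 in H4, 429 in S1, 959 in S5 and 38.2 in S6. In muscle it had 209, 897 and 401 CPM in H3, H4 and H7, and 5146 CPM in S5, far above every other sample. Dcn, the fibroblast proteoglycan decorin, likewise had 4880 CPM in the muscle of S5 against 57.3 to 544 CPM in the other 3. The fibroblast markers summed to 1.00% of UMIs in the muscle of S5 and to 0.132% to 0.184% in the others, and their part in this result was not tested.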

How the data were processed

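The authors processed Seq-Well libraries of 10 mice with Drop-seq tools and STAR against GRCm38, filtered cells, and deposited 1 table of raw UMI counts (34586 genes, 13240 cells, 48 samples) with a cell annotation for 12096 cells. They had named clusters by matching denoised profiles to sorted reference populations and by marker genes, and had removed cells over 6000 UMIs as possible doublets. No doublet caller was run here, and strand and ambient RNA were not corrected. Denoised values were not used. Barcodes shared between the 8 joint samples numbered 2, none endothelial.

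Cells annotated as endothelial were summed per mouse and organ. Genes with at least 10 UMIs over the samples of a fit, and samples with at least 10 cells, entered edgeR 4.0.16 (R 4.3.3) quasi-likelihood tests with TMM factors, which were 0.925, 1.53, 0.84, 0.758 and 1.11 for the joints of H3, H4, S1, S5 and S6, and Benjamini-Hochberg adjustment at 0.05. The fits were run on simulated counts with known changes placed only in genes of at least 50 UMIs. Most genes tested between CIA and healthy joints had fewer UMIs, and for them the recovery of a change was not checked. Alternatives were DESeq2 1.42.0, other scalings, filters and cell minimums, experiment as a covariate, left-out mice and a replicate block. Choices of cells by identity or globin UMIs were added after seeing the data. Shares were compared by a 2-sided exact permutation test over mice in Python 3.11.15. Cells were thinned to 400 UMIs with a fixed seed, and 0 cells were shallower. Wilson intervals and the floor of 3 UMIs cover counting error only. Samples of 1 mouse are not separate animals, and 2 healthy against 3 CIA mice set the precision.

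Counts of called genes include genes that are not reported here. The members and gene lists were chosen with earlier results of these data known. Named genes were the 3 markers, list members that were called or had the most UMIs, the called genes of largest change whose groups did not overlap, and the 10 genes most specific to these cells. Genes outside this rule (Vcam1, Lama4, Nid1, Prox1, Esm1, Apln and Angpt2, the marker genes listed at 0, the neutrophil genes called in supported cells, and the mast cell and globin genes called between organs) were named after their values were seen. Same-numbered samples of joint and muscle come from the same animal, and their deviations from the group means correlated at -0.256 (H3) and -0.258 (H4) over 565 genes. H3 and H4 were the only healthy joints in the fit, so their joint deviations mirror each other and these correlations are not independent. Gene positions are from RefSeq on GRCm38.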

Additional observations from a re-analysis of the deposited data

Results flagged for a closer look

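The fitted interaction of organ and disease state passed the threshold for 4 genes, but its CIA muscle arm was the 1 sample of S5, so the values describe that library and not a CIA effect in muscle. The fitted differences, joint minus muscle, were -7.59 ± 1.62 (SE) for Gal, -4.48 ± 0.961 for Gsn, -9.18 ± 2.06 for Retnla and -4.29 ± 0.981 for Dcn on the log2 scale (edgeR adjusted p = 0.00957, 0.00957, 0.0168 and 0.0182). Gal, the neuropeptide galanin, had 0, 7, 0, 0 and 0 UMIs in the joints of H3, H4, S1, S5 and S6, and 9, 10, 0 and 74 UMIs in the muscle of H3, H4, H7 and S5. Retnla, a secreted protein of alternatively activated macrophages and stroma, had 10, 0, 3, 1 and 1 UMIs in the joints and 26 UMIs in the muscle of S5 alone. With groups at or near 0 the fitted values of these 2 genes are no measure of size. Without H7, without S1, and with the mouse as a replicate block, 0 genes passed. Dixon's criterion was applied only to the share of endothelial cells in the joints of the 5 CIA mice, under 5 denominators, and set 0 mice apart. It was not applied to gene levels or to muscle samples.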

How the results depend on the processing

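The comparison of CIA with healthy joints gave 10 genes, and 0 with DESeq2 (59 at an unadjusted p under 0.05), 1 with plain library sizes, 2 without a filter on low counts, 0 with edgeR's default filter, 1 with mice of at least 5 cells, 0 with mice of at least 1 cell, 4 with experiment as a covariate and 0 within the experiment CIA. With 1 mouse left out it gave 0 to 8. Scaling by relative log expression (RLE) gave the same 10, and all 10 kept their sign wherever a value could be had. Joint against muscle gave 27 genes, and 4 with DESeq2, 42 with RLE, 12 without a filter, 0 with the default filter, 16 with at least 5 cells, 7 with experiment as a covariate, 9 within the experiment CIA, 15 with cells over 10% globin left out, and 0 to 30 with 1 mouse left out. The interaction gave 4 genes, and 0 with DESeq2, without a filter, with the default filter, with at least 5 or at least 1 cell and with experiment as a covariate, 1 within the experiment CIA, 2 in cells with at least 3 identity UMIs, and 0 to 10 with 1 mouse left out. It could not be fitted without S5. The cause of these changes was not tested.

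H3, H4 and S5 gave both organs, and with the replicate block that pairs them joint against muscle gave 0 genes and the interaction 0 genes. No paired fit was possible for CIA against healthy, because no mouse has both states.

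The share of endothelial cells differed by 5.04 points, and by -0.224 to 9.23 with 1 mouse left out. Among single genes the sign turned on the log2 scale for Fabp4 (0.033) and Icam1 (0.024) without a filter. That setting also moved Pecam1 from 1.20 to 1.64 and Cdh5 from 0.59 to 1.00. Neither Fabp4 nor Icam1 was called in either fit, and the cause of the turned signs was not tested. With 1 mouse left out Cdh5 ranged from -0.092 to 7.11, Selp from -0.22 to 7.98 and Cd36 from -1.66 to 0.52, where the high ends for Cdh5 and Selp stand on H4 alone at 0 UMIs. In cells with at least 3 identity UMIs, Acta2 was at 1.46 and Myh11 at 0.71. Depth limits the healthy side most, since 1 UMI in H4 was 83.6 CPM.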

Other observations

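Other gene groups of joint endothelial cells showed no call between CIA and healthy in edgeR. For 13 immediate early genes, which answer to stress and to tissue digestion, the median log2 fold change was 0.19, and they summed to 1.55% of UMIs in H3, 2.00% in H4, 1.37% in S1, 0.954% in S5 and 2.26% in S6. For 7 heat shock genes it was 0.14. For 12 genes of Notch, BMP and TGF-beta signalling it was 0.25, and Hes1, a Notch target, had 478 and 1255 CPM in the healthy mice and 1217, 372 and 1457 CPM in S1, S5 and S6. For 7 genes of angiogenesis and tip cells it was 0.19, and Esm1, a gene of sprouting tip cells, had no UMI in any of the 258 cells, while Apln had 3 UMIs and Angpt2 1. For 13 genes of flow and vessel tone it was 0.67 (0.31 with genes at 0 at their bounds), for 10 of haemostasis 0.64 (0.48) and for 8 of lipid handling 1.24 (0.01). Of the 10 cell cycle genes 2 reached 10 UMIs.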
